A study of Ictidomys tridecemlineatus with 31 samples.

Results

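The genes described here are 10 genes of acid and base transport in the intercalated cells of the kidney collecting duct. They were chosen by symbol as Atp6v1g3, Atp6v0d2, Atp6v1b1, Atp6v0a4, Slc4a1, Slc26a4, Foxi1, Rhbg, Rhcg, and Insrr, and the rule itself uses no measured value. All 10 were found, each in a single row, among the 12863 genes of the table. Their identifiers there, in the same order, are gene13334, gene11647, gene5770, gene15142, gene11200, gene3384, gene16676, gene14197, gene4018, and gene14216.

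Intercalated cells set the final pH of urine. Type A cells pump protons into the lumen with a vacuolar proton pump (V-ATPase) and return bicarbonate to the blood, whereas type B cells secrete bicarbonate in exchange for chloride. The V-ATPase has a cytosolic V1 sector that hydrolyzes ATP and a membrane V0 sector that conducts protons, and several of its subunits exist in a widespread form and in a form found in few cell types, among them intercalated cells. Ammonia, which carries much of the acid out of the body, crosses collecting duct cells through Rh glycoproteins.

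RNA was sequenced from kidneys of 13-lined ground squirrels (Ictidomys tridecemlineatus), a mammal that spends winter in bouts of torpor broken by short arousals, and each library came from a fragment of the kidney of 1 animal. The deposited table held 31 animals of both sexes in 6 states, none with a drug or a genetic change. The active season was represented by 5 summer active (SA) animals and 5 spring dark (SpD) animals, the latter warm but still housed in the dark cold room after their last torpor. Hibernation was represented by 5 interbout aroused (IBA) animals, 5 entering torpor (Ent), 5 early arousing from it (EAr), and 6 later arousing and still rewarming (LAr). The paper's methods state that blood was flushed out through the heart before dissection. Animal ages are not given in the sources used here.

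Values are batch-corrected regularized log (rlog) values on the log2 scale, so a difference of 1 is a doubling. They are not scaled to gene length, so levels are compared between animals and not between genes. Read counts and depth are unknown. Experiment 1 held 3 IBA, 3 Ent, and 3 SpD animals and experiment 2 the other 22, with different library kits, so that SA, EAr, and LAr had no animal of experiment 1. Differences come from a limma model of state, sex, and experiment fitted to all genes, and q is the Benjamini-Hochberg adjusted p. The model used 29 animals, without K137 (SA) and K113 (LAr), which the paper set aside, and q under 0.001 was the main threshold. In whole tissue, fewer intercalated cells and less RNA in each of them cannot be told apart.

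K137, K113, and K130 (SpD) stood apart from the other animals of their groups in these genes, and this is described first because it touches each later comparison. In K137, each of the 10 genes lay below all 4 other SA animals, and in K113 each lay below all 5 other LAr animals. K137 was the lowest of its group in 29.48% of all genes and K113 in 37.25%. The median difference from the mean of the others was -0.70 in K137 and -0.52 in K113. Slc26a4, which encodes pendrin, the chloride-bicarbonate exchanger of type B cells, departed most in both, at 8.93 in K137 (other SA animals 10.23 to 11.10) and at 8.68 in K113 (other LAr animals 9.57 to 10.29).

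K130 departed in both directions. Atp6v1g3, Atp6v1b1, Atp6v0a4, Slc26a4, Foxi1, Rhbg, and Insrr were lower than in each of the other 4 SpD animals, while Atp6v0d2, Slc4a1, and Rhcg were higher. No gene of the 10 fell among the others. Across all genes K130 was the lowest of its group in 28.37% and the highest in 32.72%. Insrr, a receptor related to the insulin receptor that is activated by alkaline medium, read 8.52 in K130 and 10.51 to 11.30 in the others, a difference of -2.43 from their mean. Slc4a1, the chloride-bicarbonate exchanger (anion exchanger 1) on the blood side of type A cells, read 12.17 against 11.16 to 12.04, and Rhcg read 14.16 against 13.37 to 13.91.

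**Figure D1:**
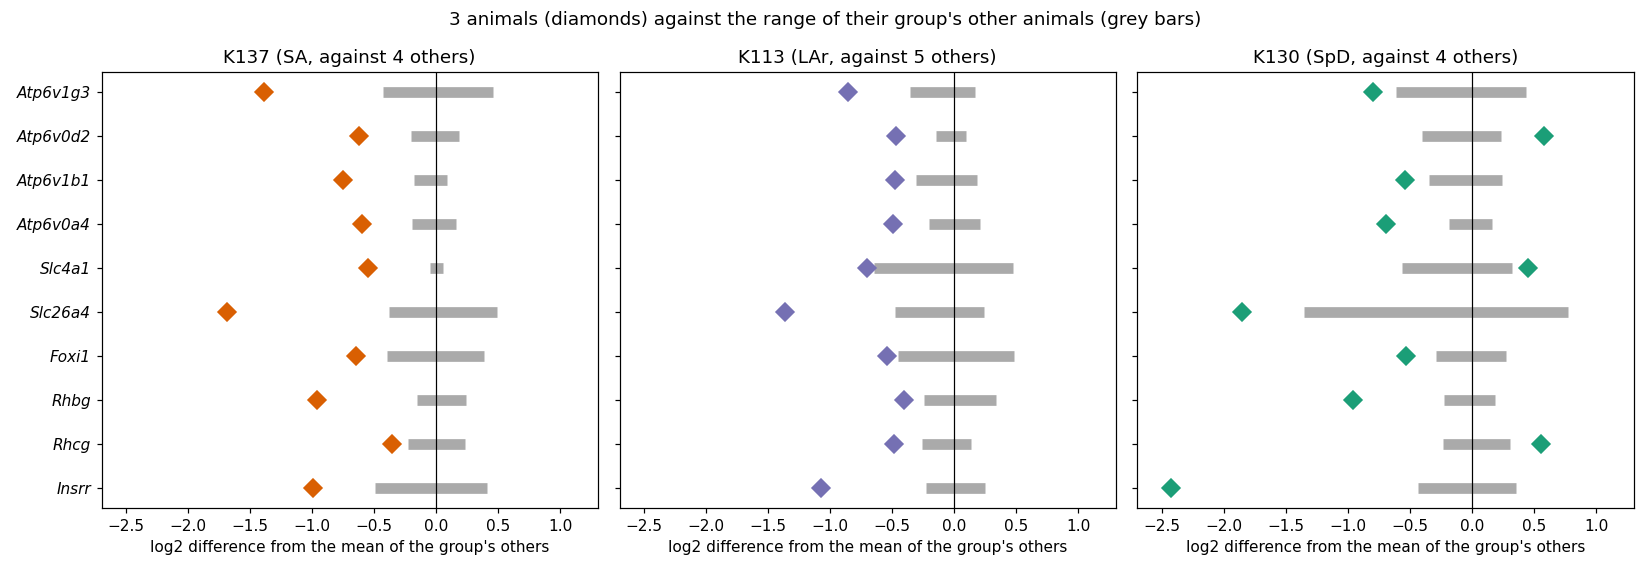
Difference of K137, K113, and K130 (diamonds) from the mean of the other animals of the same state, on the log2 scale, for the 10 genes. Grey bars span the lowest to the highest of the others. All 10 diamonds lie left of the bars in K137 and K113, whereas in K130 there are 7 to the left and 3 to the right.

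Genes of other nephron segments, and other genes of intercalated cells, also lay apart in the same animals. The 10 proximal tubule genes examined were all below the group's others in K137 and in K113, and 8 of 10 were below in K130. Of 9 genes that mark the inner medulla or respond to its high osmolality, 7 lay above the others in K137, 6 in K113, and 7 in K130. The mean over these 9 genes was 13.29 in K137, 12.77 in K113, and 13.01 in K130, against a range of 10.89 to 12.70 in the 20 hibernation animals. It ran from 11.03 to 12.08 in the other 4 SA animals and from 11.47 to 13.01 in SpD, where K130 was the highest. Principal cell genes lay above the others for 6 of 11 in K137 and in K113 and for 9 of 11 in K130. Over all genes, 33.9% were highest of the group in K137, 35.64% in K113, and 32.72% in K130. The shares of all genes lowest of the group were 29.48%, 37.25%, and 28.37%. Of 15 other intercalated cell genes, 9 lay below the others in K137 and 10 in K113, but in K130 there were 4 below and 5 above. The part of these differences in the values of the 10 intercalated cell genes was not tested.

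Other animals also sat at the edge of their groups for several of the 10 genes. K7 (IBA) was the lowest of its group for 7 of them (22.19% of all genes), and K158 (EAr) for 6 (19.26%). K8 (Ent) was the lowest for 6 and the highest for 2, against 34.14% and 32.51% of all genes. K171 (IBA) was the highest for 7 (20.14% of all genes).

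In the 29 animals, none of the 10 genes differed across the 6 states at q under 0.001, where 9.34% of all genes did (limma F test). At an unadjusted p under 0.05 there were 2 of 10, against 7203 of all 12863 genes. At q under 0.05 the count was 2, Atp6v0d2 and Slc4a1, against 46.1% of all genes. Between hibernation (mean of IBA, Ent, EAr, and LAr, 20 animals) and the active season (mean of SA and SpD, 9 animals), 0 of 10 passed q under 0.001, against 9.73% of all genes. At an unadjusted p under 0.05 in limma there were 4 of 10, against 5588 of all 12863 genes. At q under 0.05, Atp6v0d2 and Slc4a1 were lower in hibernation, where 16.8% of all genes were, and 0 of 10 were higher, where 16.6% of all genes were. Among the 7 pairs of neighboring states, 0 of 10 passed q under 0.001 in any pair, against 5.64% of all genes. At q under 0.05 only Atp6v0d2 passed in a pair, against 44.5% of all genes. At an unadjusted p under 0.05 (limma) there were 6 of 10 in at least 1 pair. The share of all genes at that threshold was not computed for the pairs. Pairs of states outside these 7 were not tested.

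These genes varied between animals of a state more than most genes did. The SD between animals that state, sex, and experiment left unexplained had a median of 0.312 over the 10 genes, with a range of 0.197 (Atp6v0d2) to 0.623, against a median of 0.155 over all genes. All 10 lay above the latter. Other lists of kidney cell genes also had medians above it, so the spread was not particular to the 10 genes. The medians were 0.287 for other intercalated cell genes, 0.326 for principal cell genes, and 0.430 for proximal tubule genes. The median was 0.500 for thick limb and distal convoluted tubule genes, but 0.151 for other V-ATPase subunits. The 95% interval of the seasonal difference reached between 0.158 and 0.485 on each side of its estimate. The median seasonal difference of the 10 genes was -0.08, against 0.0002 over all genes. In all 31 animals, and in the 28 left after K130 was also removed, the counts at q under 0.001 remained 0 for the states, the season, the pairs, and the sexes.

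**Figure D2:**
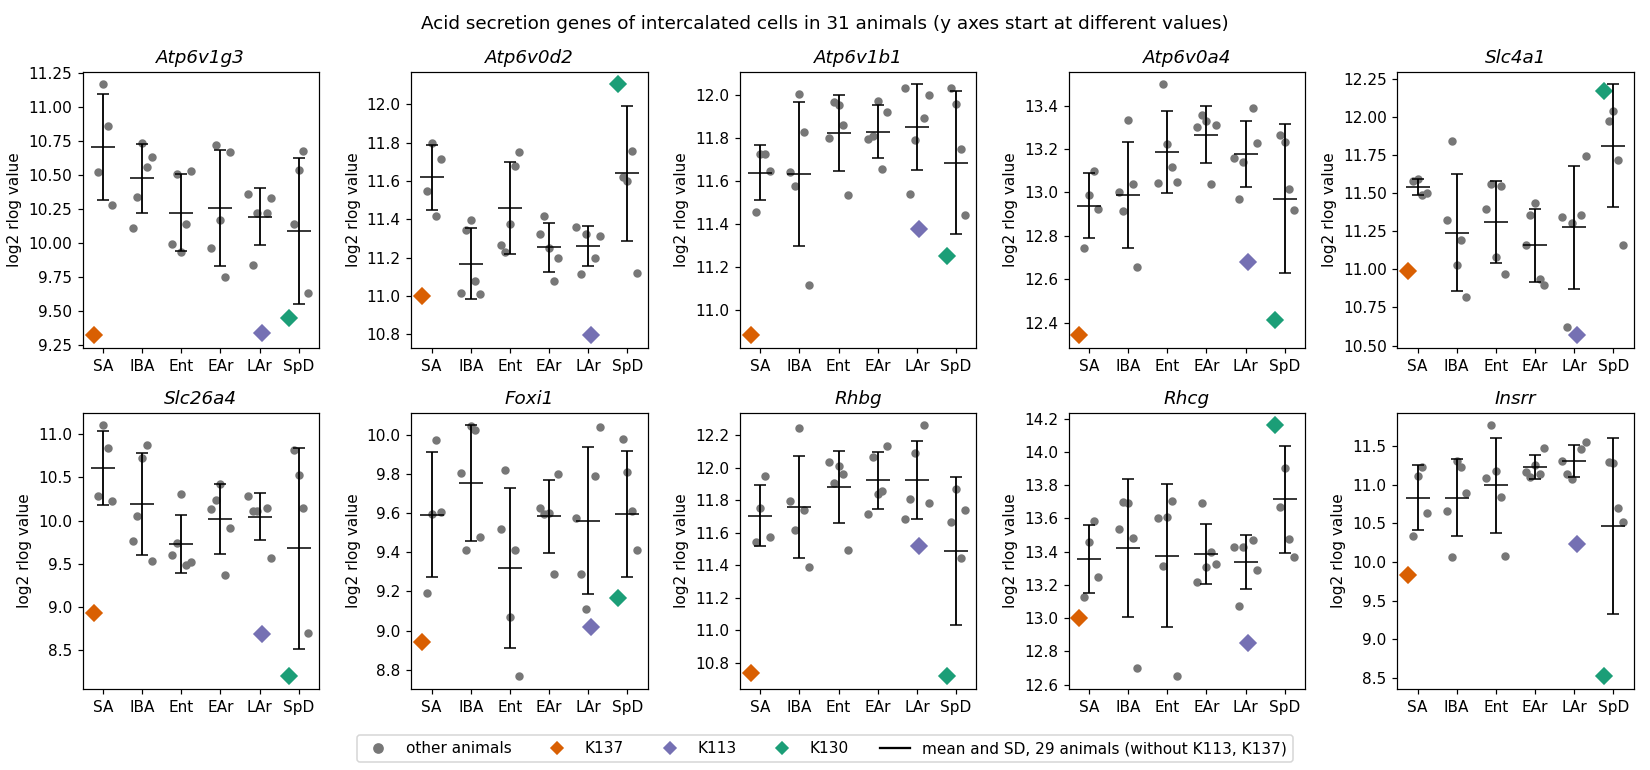
Values of the 10 genes in each of the 31 animals by state, as log2 rlog values, with the mean and SD of the 29 animals in black. The y axes start at different values. Diamonds mark K137, K113, and K130, and the states overlap for most genes, with SA and SpD above most hibernation animals for Atp6v0d2 and Slc4a1.

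Atp6v0d2 encodes the d2 subunit of the V0 sector, the form of restricted tissue distribution, and it came nearest to the main threshold. In SA it read 11.42, 11.55, 11.71, and 11.80, with 11.00 in K137. In SpD it read 11.12, 11.60, 11.62, 11.75, and 12.10, the last in K130. The active animals were thus high except for K9 of SpD and K137.

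In IBA, Atp6v0d2 read 11.01 in both K1 and K7, then 11.08, 11.35, and 11.40. In Ent it read 11.23, 11.26, 11.38, 11.68, and 11.75. The Ent values overlapped those of the active states, whereas all 5 IBA animals were below the lowest SA value of the 29 animals. EAr animals read 11.08, 11.20, 11.25, 11.32, and 11.42, and LAr animals read 11.11, 11.20, 11.31, 11.32, and 11.36, with 10.79 in K113. Among the hibernation states, Ent therefore held the 2 highest values.

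The seasonal difference of Atp6v0d2 was -0.34 (SE 0.08, q = 0.00136, limma), and 18 of 20 hibernation animals were below the median of the active animals. The gene fell from SA and SpD means of 11.62 ± 0.17 (SD, n = 4) and 11.64 ± 0.35 (n = 5) to 11.17 ± 0.19 in IBA, 11.46 ± 0.24 in Ent, 11.25 ± 0.13 in EAr, and 11.26 ± 0.10 in LAr (n = 5 each). From IBA to SpD the difference was 0.47 (95% interval 0.22 to 0.72, q = 0.0117), where 6.48% of all genes were higher in SpD at q under 0.05. The difference across the states had q = 0.00687 in the 29 animals, q = 0.0417 in all 31, and q = 0.00483 without K130 as well, and leaving out any 1 of the 29 animals kept q between 0.00143 and 0.0151. With K113 and K137 kept and K130 left out, it was q = 0.117, and the seasonal difference was -0.21 (q = 0.06).

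The experiments did not give the same picture for Atp6v0d2 in every state. SpD exceeded IBA by 0.41 in experiment 1 (3 animals against 3) and by 0.56 in experiment 2 (2 against 2). Ent exceeded IBA by 0.57 in experiment 1 and differed by -0.12 in experiment 2. The simple difference between hibernation and active animals was -0.13 in experiment 1, which held only IBA and Ent animals of hibernation, and -0.45 in experiment 2. Experiment 2 fitted alone gave a seasonal difference of -0.50 (q = 6.43e-05, limma), past the main threshold. The share of all genes passing in that fit was not computed. Its 2 SpD animals were K84 (11.75) and K130 (12.10), and K130 had the highest value of the 31 animals. In both experiments without K113, K137, and K130, the seasonal difference was -0.27 (q = 0.00204, limma).

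Slc4a1 was lower in hibernation by a similar amount (difference -0.43, SE 0.12, q = 0.00853, limma). It read 11.49, 11.50, 11.58, and 11.59 in SA, with 10.99 in K137, and 11.16, 11.72, 11.97, 12.04, and 12.17 in SpD. The 4 SA animals lay close together, and 3 SpD animals exceeded every other animal of the series. Hibernation animals ran from 10.62 to 11.84 around a median of 11.31, and 18 of 20 were below the active median of 11.59.

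State means of Slc4a1 were 11.54 ± 0.05 (SD, n = 4) in SA, 11.81 ± 0.40 (n = 5) in SpD, 11.24 ± 0.38 in IBA, 11.31 ± 0.27 in Ent, 11.16 ± 0.24 in EAr, and 11.27 ± 0.41 in LAr (n = 5 each). The 4 hibernation means thus lay below both active means. SpD exceeded IBA by 0.61 in experiment 1 and by 0.51 in experiment 2, and the fitted difference was 0.57 (q = 0.0516). The seasonal difference was -0.40 in all 31 animals (q = 0.0203) and -0.40 without K113, K137, and K130 (q = 0.0195). Across the 6 states q was 0.0324 in the 29 animals but 0.0598 in all 31 and 0.135 without K130, and it was also above 0.05 without K3 and without K6, both SpD.

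The same gene encodes band 3, the anion exchanger of red blood cells, so red cell genes were read beside it. Of 18 red cell genes looked for, 6 were in the table, and Hbb and Alas2 were among those not found by symbol. Hba1, an alpha globin, averaged 10.10 in SA, 8.49 in IBA, 8.23 in Ent, 9.70 in EAr, 8.10 in LAr, and 9.20 in SpD (q = 0.0943 across the states, limma). Hba1 was highest in SA, whereas Slc4a1 was highest in SpD. By season, the estimate for Hba1 had the same sign as that for Slc4a1 (difference -1.02, q = 0.0853, limma). Slc2a1, a glucose transporter also found in other cells, was the 1 red cell gene lower in hibernation at q under 0.05 (difference -0.36, q = 0.0378). Of the 6 genes, 3 had positive seasonal estimates. The mean over the 6 red cell genes ranged from 8.91 to 9.83 in hibernation and from 9.20 to 9.84 in the active season. Of 11 principal cell genes, 4 were lower in hibernation at q under 0.05, where 16.8% of all genes were, and 7 did not pass. The 4 were the water channels Aqp2 (difference -0.70, q = 0.0052) and Aqp3 (difference -0.87, q = 0.00125), the potassium channel Kcnj1, and the vasopressin receptor Avpr2. The mean over the 11 genes ranged from 10.73 to 11.66 in hibernation and from 11.24 to 12.40 in the active season, where K130 was the highest. The part of either cell type in the Slc4a1 and Atp6v0d2 values was not tested.

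The other 3 V-ATPase genes did not pass q under 0.05. Atp6v1b1 and Atp6v0a4 encode the B1 and a4 subunits, and their loss causes distal renal tubular acidosis in humans. Both had positive seasonal estimates over all 29 animals. Their simple differences within experiment 1 were negative, but experiment 1 held no SA, EAr, or LAr animal, so it compares other states. Atp6v1b1 ranged from a mean of 11.63 ± 0.33 (SD, n = 5) in IBA to 11.85 ± 0.20 (n = 5) in LAr, and its seasonal difference was 0.12 (95% interval -0.07 to 0.31, q = 0.328). Atp6v0a4 ranged from 12.94 ± 0.15 (n = 4) in SA to 13.27 ± 0.13 (n = 5) in EAr, with a seasonal difference of 0.20 (0.02 to 0.38, q = 0.0777). The simple difference between hibernation and active animals was -0.15 for Atp6v1b1 and -0.13 for Atp6v0a4 in experiment 1, against 0.25 and 0.35 in experiment 2. For both, every state's values overlapped those of the next in order.

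Atp6v1g3, the G3 subunit of the V1 sector, was highest in SA (10.71 ± 0.39, SD, n = 4) and lowest in SpD (10.09 ± 0.54, n = 5). SA exceeded SpD by 0.62 (95% interval 0.07 to 1.16, q = 0.122). This difference depended on the animals kept, at 0.33 with all 31 (q = 0.615) and 0.33 without K113, K137, and K130 (q = 0.519).

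Slc26a4 had the widest spread of state means, from 9.68 ± 1.16 (SD, n = 5) in SpD to 10.61 ± 0.43 (n = 4) in SA. SA animals read 10.23, 10.28, 10.84, and 11.10. SpD animals read 8.19 (K130), 8.69, 10.15, 10.53, and 10.82. The high SD of SpD thus came from 2 low males, K130 and K9, of 5 animals, and of the 3 female SpD animals K3 and K6 lay within the SA range and K84 just below it. SA exceeded SpD by 1.12 (95% interval 0.26 to 1.98, q = 0.0782, limma). The difference was 0.74 in all 31 animals (q = 0.413) and 0.58 without K113, K137, and K130 (q = 0.452). Means in IBA, Ent, EAr, and LAr were 10.19, 9.73, 10.02, and 10.04, and the seasonal difference was -0.15 (-0.62 to 0.32, q = 0.638).

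Foxi1 encodes the forkhead transcription factor that intercalated cells need to form and that drives expression of V-ATPase subunits and of Slc4a1. Its means lay between 9.32 ± 0.41 in Ent and 9.75 ± 0.30 in IBA (SD, n = 5 each), with SA at 9.59 ± 0.32 (n = 4), SpD at 9.60 ± 0.32, EAr at 9.58 ± 0.18, and LAr at 9.56 ± 0.37 (n = 5 each). The seasonal difference was -0.04 (95% interval -0.31 to 0.23, q = 0.834), so a change of more than about 0.31 in either direction lies outside the interval. Ent and IBA differed by -0.43 (q = 0.152).

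Rhbg and Rhcg, the ammonia channels of the collecting duct, differed in order. Rhbg, which sits on the blood side of the cells, was lowest in SpD (11.49 ± 0.46, SD, n = 5) and highest in LAr (11.92 ± 0.24, n = 5). Its seasonal difference was 0.27 (95% interval 0.04 to 0.51, q = 0.0624), 0.36 in all 31 animals (q = 0.0351), and 0.17 without K113, K137, and K130 (q = 0.175). The simple difference was -0.02 in experiment 1, which held only IBA, Ent, and SpD animals, and 0.43 in experiment 2. Rhcg, which is also found on the luminal side and in principal cells, was highest in SpD (13.71 ± 0.32, n = 5) and lowest in LAr (13.34 ± 0.16, n = 5), with a seasonal difference of -0.15 (-0.40 to 0.09, q = 0.323). The opposite order of SpD and LAr in these genes was not tested.

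Insrr had the largest estimated seasonal difference, 0.44 (95% interval -0.04 to 0.93, q = 0.149), and the least precise one. The simple difference between hibernation and active animals was -0.22 in experiment 1 (6 IBA and Ent animals against 3 SpD animals). In experiment 2, which held all 6 states, it was 0.79 (14 against 6, with K130 among the 6). SA animals read 10.34, 10.64, 11.12, and 11.24, with 9.83 in K137. SpD animals read 8.52, 10.51, 10.70, 11.28, and 11.30, and EAr animals read 11.11, 11.14, 11.16, 11.26, and 11.48. EAr values were close together, while SpD values spread over the widest range of any gene and state here because of K130. Without K113, K137, and K130 the seasonal difference was 0.17 (q = 0.443), and the SpD mean rose from 10.46 ± 1.14 (n = 5) to 10.95 ± 0.40 (n = 4).

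Across the torpor bout itself, from Ent to EAr, differences ran from -0.31 (Slc4a1) to 0.51 (Slc26a4), with no unadjusted p under 0.05 in limma. From EAr to LAr they ran from -0.10 (Atp6v0a4) to 0.11 (Slc4a1), again with none. Between females and males 0 of 10 passed q under 0.05, where 0.218% of all genes did. Only Atp6v0d2 had an unadjusted p under 0.05 there (limma), at 0.15 higher in females (q = 0.764). Over all genes, 824 of 12863 had such a p.

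Other V-ATPase subunits were read to compare widespread forms with the restricted ones, and 19 of 21 were in the table. None passed q under 0.001 across the states in limma, against 9.34% of all genes, and 7 passed q under 0.05, against 46.1%. At an unadjusted p under 0.05 there were 8, against 7203 of all 12863 genes. By season, 3 were higher in hibernation at q under 0.05 and 2 were lower, against 16.6% and 16.8% of all genes, with a median difference of 0.02 over the 19. Atp6v0d1, the widespread form of the d subunit, was higher in hibernation by 0.28 (95% interval 0.16 to 0.39, q = 5.54e-04). It averaged 12.37 in IBA against 11.92 in SpD, a difference from IBA to SpD of -0.45 (q = 0.00183), while the difference for Atp6v0d2 was 0.47. Atp6v0a1, the widespread a1 form, read 13.94 in SA and 12.75 in IBA (difference -1.35, q = 0.00182), and Atp6v1b2, the B2 form, read 13.94 and 13.32 (difference -0.70, q = 0.00131). The other 2 higher in hibernation were Tcirg1, the a3 form (difference 0.31, q = 0.00434), and Atp6v1f, the single F subunit (difference 0.25, q = 0.00312). The restricted forms Atp6v0a4 and Atp6v1b1 had seasonal differences of 0.20 and 0.12 as given above, against -0.67 and -0.21 for these widespread forms. The difference between forms was not tested.

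Of 21 other genes of intercalated cells, 15 were in the table, among them the type A chloride-bicarbonate exchanger Slc26a7, the type B exchanger Slc4a9, the factor Hmx2, and carbonic anhydrases II and XII. By season 6 of 15 were lower in hibernation at q under 0.05, against 16.8% of all genes, and 0 were higher, against 16.6%. The median difference was -0.22. At an unadjusted p under 0.05 in either direction there were 7 (limma), against 5588 of all 12863 genes. Across the states 2 passed q under 0.001, against 9.34% of all genes, and 6 passed q under 0.05, against 46.1%. Slc26a7 averaged 9.28 in SA, 9.45 in SpD, 8.50 in IBA, 9.06 in Ent, 8.66 in EAr, and 8.48 in LAr (seasonal difference -0.69, q = 3.09e-04). Jag1, a Notch ligand found in collecting duct and other cells, averaged 10.61 in SA, 10.58 in SpD, 10.43 in IBA, 10.16 in Ent, 10.03 in EAr, and 10.13 in LAr (seasonal difference -0.41, q = 2.15e-04). Aqp6, a water and anion channel of type A cells, differed by -0.62 with season (q = 0.00159), and Adgrf5, an adhesion receptor also abundant in endothelium, by -0.29 (q = 0.0232). The carbonic anhydrases XII (difference -0.38, q = 0.00145) and II (difference -0.36, q = 0.00669) were the others lower in hibernation. Slc4a9 and Hmx2 had estimates of 0.29 (q = 0.27) and 0.21 (q = 0.368).

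**Figure D3:**
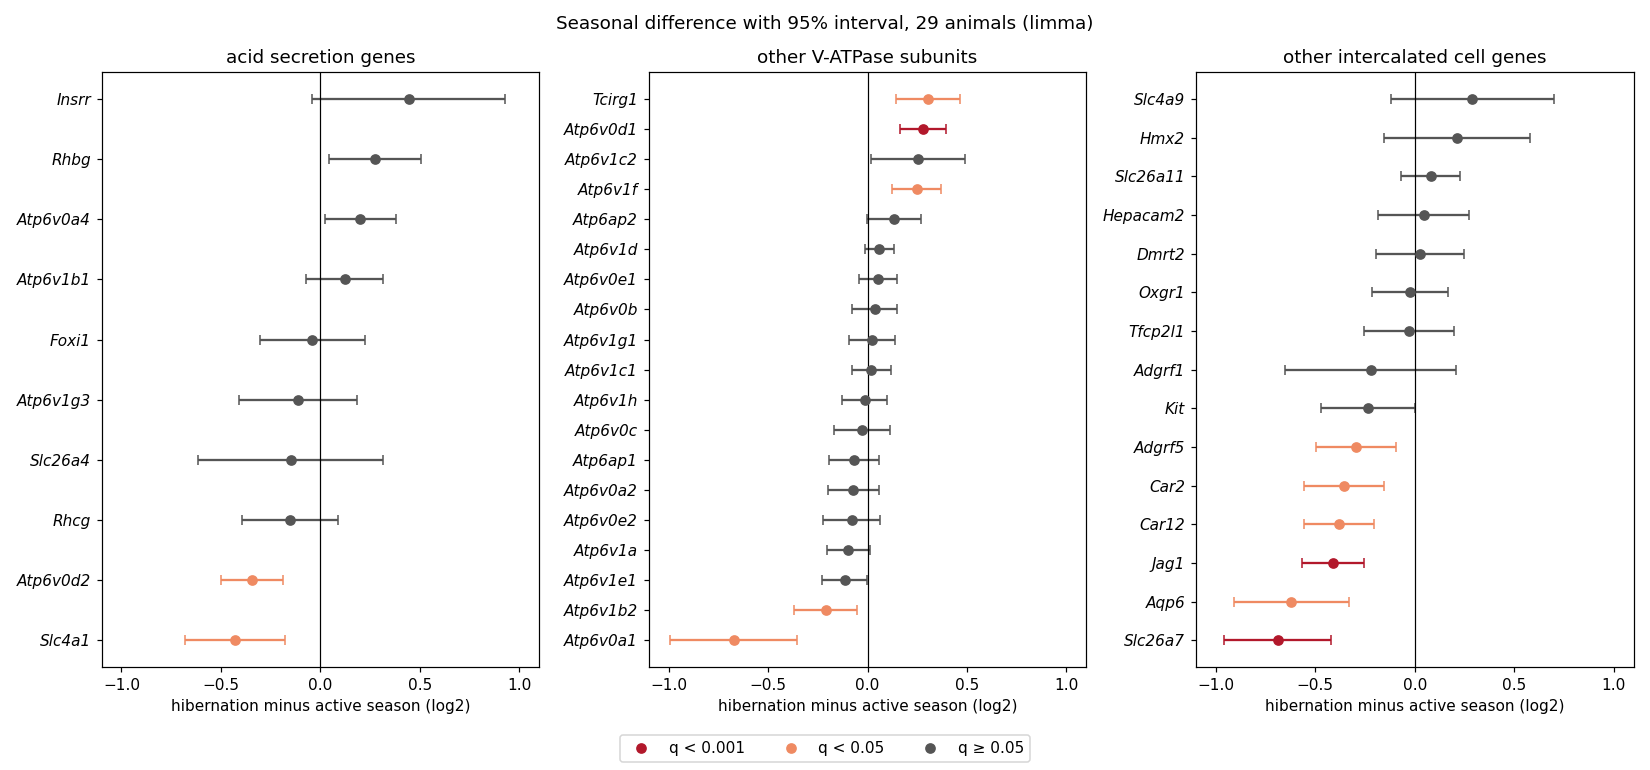
Difference between hibernation and the active season, with its 95% interval, in 29 animals for the 10 acid secretion genes, the 19 other V-ATPase subunits, and the 15 other intercalated cell genes, on the log2 scale. Values left of 0 are lower in hibernation and colors give the limma q. Atp6v0d2 and Slc4a1 lie at -0.34 and -0.43, and Atp6v0d1 lies at 0.28.

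Among 11 genes that sense or control acid-base balance, 10 were in the table. Across the states 1 passed q under 0.001, against 9.34% of all genes, and 4 passed q under 0.05, against 46.1%. By season 1 was higher in hibernation at q under 0.05 and 2 were lower, against 16.6% and 16.8% of all genes. Edn1, the precursor of endothelin 1, which raises acid secretion in the distal nephron, averaged 7.40 in SA, 7.61 in SpD, 8.04 in IBA, 8.34 in Ent, 8.29 in EAr, and 8.33 in LAr (seasonal difference 0.74, q = 3.55e-06, limma). Its receptor gene Ednrb averaged 10.86 in SpD and 9.96 in IBA (difference 0.90, q = 5.14e-04) and was lower in hibernation by season (difference -0.44, q = 0.00118). Gpr4, a receptor for extracellular protons, was higher in IBA than in SA (difference 0.63, q = 0.00797), as was Ptk2b, a pH-sensitive tyrosine kinase (difference 0.46, q = 0.0198).

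Differences between animals of the same state were shared by most of the 10 genes. After state, sex, and experiment were taken out, 36 of the 45 pairs of genes had a positive Pearson's r over the 29 animals, with a median of 0.39. These r values describe animals whose kidney fragments and libraries were shared by all the genes, so they carry no test. Atp6v1b1 and Atp6v0a4 were the closest pair (r = 0.87), followed by Atp6v0a4 with Insrr (r = 0.82) and Foxi1 with Insrr (r = 0.78). Atp6v0d2 stood outside this group, with a negative r for 6 of its 9 pairs and the lowest with Insrr (r = -0.53). Most of this rested on K130. Without it, 41 of the 45 pairs were positive, Atp6v0d2 and Insrr had r = -0.06, and the median r of Atp6v0d2 with the others went from -0.10 to 0.26.

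**Figure D4:**
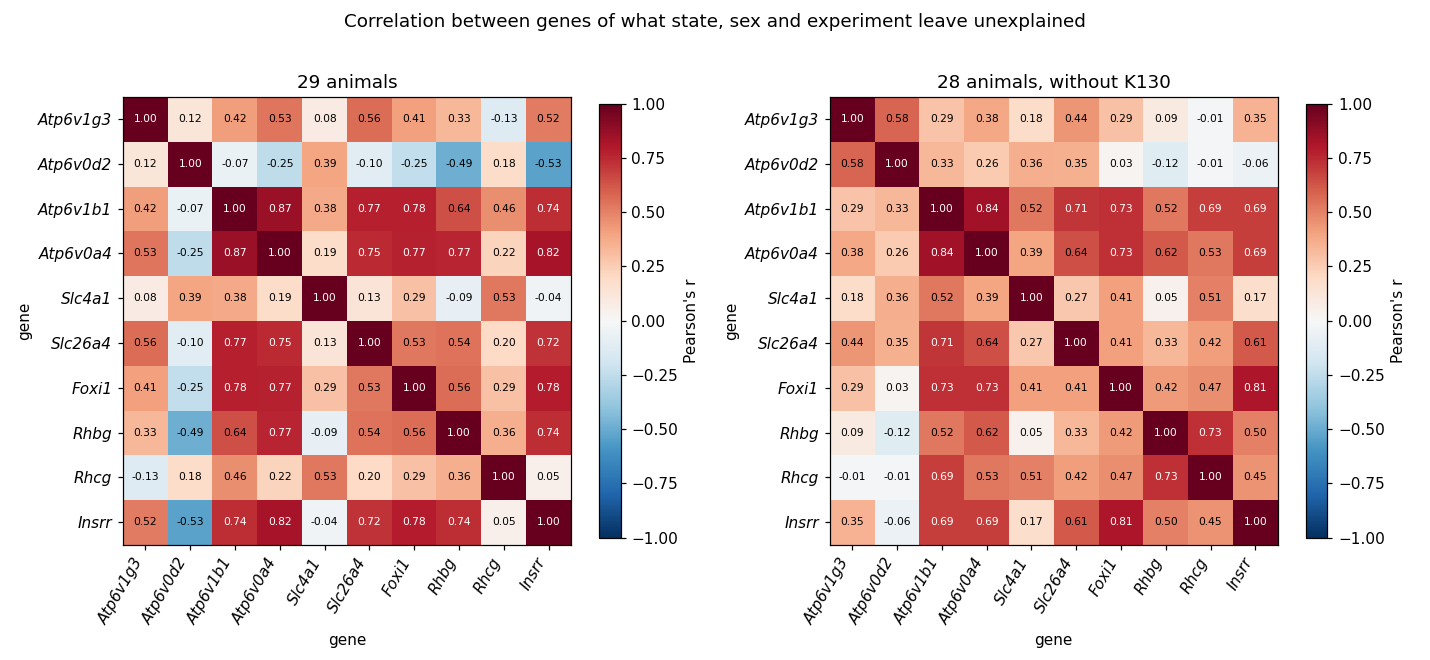
Pearson's r between the 10 genes over what state, sex, and experiment left unexplained, in 29 animals (left) and in 28 without K130 (right). Red is positive and blue negative. The blue row of Atp6v0d2 on the left is mostly gone on the right, where its r with Insrr is -0.06.

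Marker genes of the cell's subtypes aligned differently with the 10 genes in the same residuals, again as a description over 29 animals. Insrr followed Slc4a9 (r = 0.91, 0.76 without K130) and Hmx2 (r = 0.84, 0.73 without K130), both of type B cells. Slc4a1 followed Aqp6 (r = 0.76 with and without K130) and Slc26a7 (r = 0.72 with and without K130), both of type A cells. It also had r = 0.68 with Dmrt2, 0.60 with Kit, and 0.60 with carbonic anhydrase II (0.70, 0.70, and 0.60 without K130). With the principal cell genes Aqp2 and Aqp3 its r was 0.60 and 0.585 (0.61 and 0.57 without K130), and with Slc4a9 -0.23 (-0.14 without K130). Slc12a3, the sodium-chloride cotransporter of the distal convoluted tubule, was followed by Rhbg (r = 0.86, 0.75 without K130), Atp6v0a4 (r = 0.87, 0.79 without K130), and also Insrr (r = 0.85, 0.64 without K130). Insrr and the inner medullary urea transporter Slc14a2 had r = -0.63 (-0.52 without K130). The proximal tubule gene Lrp2 had r = 0.78 with Insrr and 0.77 with Rhbg (0.58 and 0.61 without K130). With Atp6v1b1 and Atp6v0a4 its r was 0.71 each (0.63 and 0.51 without K130), and with Atp6v0d2 -0.62 (-0.33 without K130). For Rhcg, the highest r among the markers was with the principal cell enzyme Hsd11b2 (r = 0.66, 0.86 without K130), which Rhbg (r = 0.80) and Atp6v1b1 (r = 0.77) followed as well, while its r with the principal cell gene Aqp2 was 0.46. Of the cell type's markers, Slc4a9, Slc26a7, Hmx2, Kit, and carbonic anhydrase II were in the table. Clnk, Atp4a, Atp12a, Car15, Slc4a8, and Spink8 were not found by symbol. Presence in a table of whole kidney does not by itself check a cell type.

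Over all other genes, those whose residuals correlated best with the mean of the 10 genes in the 29 animals were Tmem213 (r = 0.88), Dll1 (r = 0.85), Slc22a2 (r = 0.84), Tgm3 (r = 0.82), and Calb1 (r = 0.82). Tmem213 is the direct neighbor of Atp6v0a4 among protein-coding genes, as RefSeq annotates mIctTri1.hap1 (the study aligned to another genome build). Slc22a2 is an organic cation transporter of the proximal tubule and Calb1 a calcium-binding protein of the distal convoluted and connecting tubule. Over the means of the 6 states, the closest were Tp53i3 (r = 0.99), Piwil1 (r = 0.99), Mdm1 (r = 0.99), Cdhr2 (r = 0.98), and Slc13a3 (r = 0.96), which rests on 6 points.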

How the data were processed

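Kidney RNA of 31 animals was analyzed from 1 deposited table. The authors selected polyadenylated RNA, prepared libraries with a different kit in each of 2 experiments, used cutadapt for trimming and HISAT2 to discard mitochondrial reads, and estimated transcript abundance with Salmon. The deposited values are log2 rlog values that the authors made with DESeq2 and corrected for batch with limma. Versions are not given in the sources used here, and counts are not in the table, so depth and counting error are unknown. The p-values set differences between states, seasons, or sexes against how far animals of a state differ. The study's own test of counts could not be repeated.

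Instead, all 12863 genes were modeled on state, sex, and experiment with limma 3.58.1 (R 4.3.3). Variances were moderated by empirical Bayes with a trend on mean level, and p-values were adjusted over all genes by the Benjamini-Hochberg method (q), separately for each contrast. Thresholds were 0.001 and 0.05, and intervals are 95% intervals of the model. The fit does not count the degree of freedom that batch correction had already spent. All samples are separate animals. Plots used matplotlib 3.10.9 and Python 3.11.15.

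The 10 genes and the marker lists were chosen with earlier results of these data known. The lists are other V-ATPase subunits, other intercalated cell, acid-base, principal cell, inner medulla, proximal tubule, thick limb and distal convoluted tubule, glomerulus and endothelium, and red blood cell genes. Genes were matched by symbol without regard to case, and carbonic anhydrases II and XII were matched as Ca2 and Ca12 after the table was seen. Each of the 10 genes is given. Of other lists, genes with q under 0.001 across states are named and otherwise up to 4 with the lowest q. Others were named outside this rule after their values were seen. They are Atp6v1f, Slc4a9, Hmx2, Dmrt2, Kit, Car2, Car12, Avpr2, Hsd11b2, Slc12a3, Lrp2, and those named only in the closing section beyond the first 4 of a list. The 5 genes closest to the 10 by residuals and by state means are also named.

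Alternatives were all 31 animals, 28 without K113, K137, and K130, all but K130 (added after seeing the data), experiment 2 alone, no term for experiment or sex, no trend, a robust prior, animal weights, median centering, genes with a mean of at least 8, the threshold of 0.05, and each animal left out. All 10 symbols matched RefSeq for mIctTri1.hap1, another assembly than the study's, so no positions or sequences are given.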

Additional observations from a re-analysis of the deposited data

Results flagged for a closer look

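In 60 combinations of gene and state over all 31 animals, 6 had a highest or lowest animal far from the rest, and about 1 in 20 such groups is picked out by chance. Slc4a1 read 10.99 in K137 of SA, 0.50 below the next animal. Insrr read 10.23 in K113 of LAr, 0.85 below the next, and 8.52 in K130 of SpD, where the others began at 10.51. These are the 3 animals that stood apart in all 10 genes.

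Rhcg read 12.70 in K7 of IBA, 0.78 below the next, and without K7 the seasonal difference of Rhcg was -0.11 (q = 0.425, limma). Rhbg read 11.49 in K8 of Ent, 0.41 below the next, and without K8 its seasonal difference was 0.31 (q = 0.028). Atp6v0a4 read 13.04 in K158 of EAr, 0.26 below the next, and without K158 its seasonal difference was 0.21 (q = 0.0645).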

How the results depend on the processing

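At q under 0.001, the counts of 0 genes for the states, the season, the pairs, and the sexes were unchanged in all 31 animals, without K130, without a term for experiment or sex, without trend, with a robust prior, with median centering, and among genes with a mean of at least 8. Experiment 2 alone, with K130 as 1 of its 2 SpD animals, gave 1 gene (Atp6v0d2) for the states and 1 for the season. Animal weights gave 1 for the season (Atp6v0d2, q = 7.43e-04, limma). At q under 0.05 there were 2, 2, and 1 genes for the states, the season, and the pairs. With each animal left out, the seasonal count was 0 to 1, and it was 1 (Atp6v0d2) without K5 or K8 of Ent or K9 of SpD.

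The estimated seasonal difference turned its sign for Slc26a4 (0.088) and Foxi1 (0.16) in experiment 2 alone and for Foxi1 without K140 (0.023, with a range of -0.12 to 0.023 over each animal left out), none of them called, and the cause was not tested. Experiment 2 alone, which holds 2 animals each of IBA, Ent, and SpD, gave larger seasonal differences for Insrr (0.94, q = 0.0128) and Rhbg (0.54, q = 0.00424), where K130 is 1 of the 2 SpD animals. Slc4a1 had q = 0.0511 by season there. With K113 and K137 kept and K130 left out, neither Atp6v0d2 (q = 0.06) nor Slc4a1 (q = 0.0502) passed q under 0.05 by season. No paired analysis was possible because replicate numbers only name the animals. Depth is unknown, so what it limits cannot be stated.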

Other observations

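The lists of other nephron segments, read as neighbors of the intercalated cells, gave the following counts in the 29 animals (limma). Over all genes, 46.1% passed q under 0.05 across the states and 16.8% were lower in hibernation by season at that threshold. These shares are the background of each count at q under 0.05. Of 10 proximal tubule genes, 5 passed q under 0.05 across the states, and by season 3 were lower in hibernation (Slc9a3, Slc5a2, and Slc34a1) and 0 higher. Slc9a3, the sodium-proton exchanger NHE3 that secretes acid in the proximal tubule, was lower by 0.61 (difference -0.61, q = 3.64e-04), past 0.001. It averaged 11.65 in SA, 11.61 in SpD, 10.94 in IBA, 10.93 in Ent, 11.18 in EAr, and 11.02 in LAr. Slc4a4, the sodium-bicarbonate cotransporter that returns base to the blood there, averaged 14.85 in SA and lay between 13.86 (IBA) and 14.49 (EAr) in the other states (q = 0.0117 across the states).

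Of 9 inner medulla genes, 4 passed q under 0.05 across the states and 3 were lower in hibernation by season (Slc14a1, Slc5a3, and Aqp1). Of 7 thick limb and distal convoluted tubule genes, 2 passed across the states and 3 were lower in hibernation (Umod, Cldn10, and Trpm6). Of 8 genes of glomerulus and endothelium, 2 passed across the states and 3 were lower in hibernation (Kdr, Nrp1, and Emcn). Of 11 principal cell genes 5, and of 6 red cell genes 1 (Slc2a1, a glucose transporter that is also found in other cells), passed across the states. No gene of these lists was higher in hibernation at q under 0.05, where 16.6% of all genes were. At an unadjusted p under 0.05 in either direction, the seasonal counts were 3 for the proximal tubule, 4 for the inner medulla, 5 for the thick limb and distal convoluted tubule, 5 for glomerulus and endothelium, 5 for principal cells, and 3 for red cells. Over all genes, 5588 of 12863 had such a seasonal p.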
